A study of Mus musculus with 3 samples.

Results

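Ribosomal protein paralogue pairs are pairs of genes in which one codes for a protein of the standard ribosome and the other for a related copy. The 5 pairs examined here were *Rpl22* and *Rpl22l1*, *Rps27* and *Rps27l*, *Rpl39* and *Rpl39l*, *Rpl36a* and *Rpl36al*, and *Rpl7* and *Rpl7l1*. They were chosen by gene symbol and not by their values, and comprise 10 of the 54838 genes listed with the counts. The first gene of each pair is called the parent below and the second the paralogue. Of the 10 genes, 9 had at least 100 unique molecular identifiers (UMIs) in the bins compared, and *Rpl39l* had 17. The data are spatial transcriptomes of thymus from 3 female C57BL/6 mice, with 1 section from each mouse. The section labelled KO1134 came from a *Trp53*-/- mouse aged 17 weeks and the section labelled KO1308 from a *Trp53*-/- mouse aged 21 weeks. The section labelled WT1101 came from a *Trp53*+/+ mouse aged 17 weeks. The genotype is that of the whole animal, stromal cells included, and the labels name no treatment. Of the KO mice, the list of spatial samples that accompanies the study names KO1308 alone, with a depth nearer to that of the section labelled KO1134. Which mouse and age each KO section belongs to is therefore uncertain, and the names below follow the labels.

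Most ribosomal proteins are fixed parts of every ribosome, and paralogues can take the place of their parents or serve in special tissues. *Rpl22* is lost in some T cell lymphomas and leukaemias, is needed for the development of alpha beta T cells, and its protein lowers the amount of *Rpl22l1* mRNA. *Rps27l* is a direct target of p53 whose protein acts on the p53 and Mdm2 pair, *Rpl39l* is known mainly from male germ cells, *Rpl36al* is a copy of *Rpl36a* that arose through an mRNA, and *Rpl7l1* is a more distant relative of *Rpl7* linked to ribosome assembly.

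The sequences of 2 pairs are shown because reads of *Rps27* and *Rps27l*, and of *Rpl39* and *Rpl39l*, have to be told apart for the values below to hold. They are coding sequences from the GENCODE M21 transcripts of GRCm38, written 5′ to 3′, and capitals mark the bases at which the members of a pair differ.
Rps27: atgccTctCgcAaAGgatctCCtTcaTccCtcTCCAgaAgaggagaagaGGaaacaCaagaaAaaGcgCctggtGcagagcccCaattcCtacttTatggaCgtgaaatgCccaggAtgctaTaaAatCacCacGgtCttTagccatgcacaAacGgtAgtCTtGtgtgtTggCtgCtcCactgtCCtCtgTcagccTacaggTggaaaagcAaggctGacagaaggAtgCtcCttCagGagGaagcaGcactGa
Rps27l: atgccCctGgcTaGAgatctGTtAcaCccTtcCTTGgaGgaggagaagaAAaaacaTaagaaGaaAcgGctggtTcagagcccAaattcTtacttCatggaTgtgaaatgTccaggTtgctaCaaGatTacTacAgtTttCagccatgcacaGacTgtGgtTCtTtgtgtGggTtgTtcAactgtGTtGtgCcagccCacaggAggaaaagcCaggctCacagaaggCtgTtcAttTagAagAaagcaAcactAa
Rpl39: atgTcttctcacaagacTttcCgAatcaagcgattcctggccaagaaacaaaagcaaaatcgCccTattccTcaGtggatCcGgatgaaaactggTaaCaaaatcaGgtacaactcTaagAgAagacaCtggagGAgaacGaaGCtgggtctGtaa
Rpl39l: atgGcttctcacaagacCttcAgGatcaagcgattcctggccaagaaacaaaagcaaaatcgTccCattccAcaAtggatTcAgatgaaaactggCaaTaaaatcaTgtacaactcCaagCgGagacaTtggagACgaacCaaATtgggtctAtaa
The coding sequences of *Rps27* and *Rps27l* had 255 bases each and differed at 61 (76.1% identity), and those of *Rpl39* and *Rpl39l* had 156 bases each and differed at 23 (85.3% identity). Identity was 87.9% for *Rpl36a* and *Rpl36al*, 71.2% for *Rpl22* and *Rpl22l1* and 61.8% for *Rpl7* and *Rpl7l1* over aligned bases. None of the 10 transcripts shared a stretch of 50 bases with its pair partner. The transcript of *Rpl36al* had 1 exon where that of *Rpl36a* had 5, and the coding part of *Rpl39l* lay in 1 exon where that of *Rpl39* lay in 3.

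Within GRCm38, *Rps27* (ENSMUSG00000090733) lies at chr3:90212522-90213651 on the minus strand and *Rps27l* (ENSMUSG00000036781) at chr9:66946086-66949516 on the plus strand. *Rpl22* (ENSMUSG00000028936) lies at chr4:152325742-152334071 and *Rpl22l1* (ENSMUSG00000039221) at chr3:28805436-28807424, both on the plus strand. *Rpl39* (ENSMUSG00000079641, chrX:37082520-37085402, minus strand) and *Rpl36a* (ENSMUSG00000079435, chrX:134585654-134588062, plus strand) are both on the X chromosome, whereas *Rpl39l* (ENSMUSG00000039209, chr16:10170226-10174911, plus strand) and *Rpl36al* (ENSMUSG00000049751, chr12:69182731-69184083, minus strand) are on autosomes. *Rpl7* (ENSMUSG00000043716) lies at chr1:16101295-16104662 and *Rpl7l1* (ENSMUSG00000063888) at chr17:46773907-46782672, both on the minus strand.

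A promoter window of *Rps27l* is shown because this gene is the p53 target of the set. RefSeq windows of 300 bases around transcription starts (GRCm38.p6) matched 9 of the 10 genes, with 11 windows. They were searched on both strands for the p53 response element half-site, a motif of 10 letters, and capitals mark its matches in the window at chr9:66946163-66946462 on the plus strand.
Rps27l window: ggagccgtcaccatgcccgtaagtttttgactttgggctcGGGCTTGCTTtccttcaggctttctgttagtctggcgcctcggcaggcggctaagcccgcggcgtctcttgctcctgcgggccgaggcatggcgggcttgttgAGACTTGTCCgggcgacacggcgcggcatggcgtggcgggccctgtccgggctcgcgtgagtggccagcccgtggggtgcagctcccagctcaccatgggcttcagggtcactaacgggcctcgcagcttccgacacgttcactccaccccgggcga
This window held 2 half-sites, starting at positions 41 and 144 counted from 1 at its 5′ end, so that they were not side by side. Both lay in intron 1 of the principal *Rps27l* transcript (chr9:66946203-66946212 and chr9:66946306-66946315). The other window of *Rps27l*, at its upstream start, held 0. The window of *Rps27* held 1, in exon 1 at position 280, and those of the other 7 matched genes held 0. Of all 32851 windows, 8.36% held at least 1 half-site and 0.359% at least 2.

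The unit of analysis was a square of 27 µm over which barcoded spots were summed (a bin), and a bin can hold several cells of different types. The counts summed to 21089885 to 41581477 UMIs per section. Bins over tissue numbered 16140 in KO1308, 12009 in KO1134 and 27104 in WT1101, with mean UMIs per bin of 1089, 2590 and 1496. Values are given for thymic T bins, which are bins positive for a CD3 gene within the thymus area, unless stated otherwise. There were 5731 such bins with 6305288 UMIs in KO1308, 2720 with 6989015 UMIs in KO1134 and 15872 with 25535760 UMIs in WT1101. The CD3 limit is relative to the UMIs of a bin, so a deeper bin needs more CD3 UMIs to pass. KO1134 had the most UMIs per bin, so thymic T bins were not chosen alike across sections. The part of this in the ratios to WT was not tested. All tissue bins and single areas do not use the CD3 limit. *Trp53* itself stood at 23 CPM (UMIs of a gene per 1000000 UMIs of the same bins) in KO1308, 15.9 in KO1134 and 80.1 in WT1101, or 0.287 and 0.198 of the WT level. The labelled tissue was checked by its markers in all tissue bins, which are not chosen by these genes. All 6 thymus genes had UMIs there in each section, with summed levels of 1426.5, 646 and 2082 CPM in KO1308, KO1134 and WT1101. In thymic T bins they summed to 1870, 702 and 2208 CPM, but these genes also define the thymus area, so this is no check. Genes of several other cell types in thymic T bins were higher in both KO sections. In KO1308, KO1134 and WT1101, medullary epithelial genes were at 583, 606 and 126 CPM and plasma cell genes at 876, 404 and 126. B cell genes were at 80.6, 196 and 39.5, and macrophage genes at 478, 584 and 313. These lists held 5, 2, 3 and 3 genes, all detected in each section. Erythroid genes were instead lower in both, at 3.17, 16.7 and 47.5 CPM, and cortical epithelial genes were split, at 1372, 999 and 1147. *Rag1* and *Dntt*, which act in receptor gene recombination in immature thymocytes, summed to 1149, 421 and 1877 CPM. The part of these differences in the member ratios was not tested. Thymic T bins of KO1134 partly lay in an area where B cell genes exceed thymus genes, and 2318 of its 2720 bins remained without that area. KO1308 had 5730 of 5731 outside it, and WT1101 had no such area. Mean depth, age of one mouse and permeabilisation time (per the study's methods) differed along with genotype and cannot be told apart from it. A single WT section allows no test of genotype. The values in brackets are exact 95% intervals that cover counting error only, and how far the KO sections lie apart is all that shows the spread between animals. In sums over bins, fewer cells of a type and less RNA per cell cannot be told apart.

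Across the set, no member with at least 100 UMIs stood at least 1.5-fold away from WT on the same side in both KO sections. The count was 0 of the 9 members with at least 100 UMIs, where 14.7% of all 14728 genes tested were that far above WT in both KO sections and 5.98% that far below. In all tissue bins it was again 0 of 9, beside 19.9% above and 7.49% below among 17397 genes. The parents and paralogues were nonetheless placed differently in KO1134, while in KO1308 their medians were close. All 5 parents were above WT in KO1134 and 3 of 5 in KO1308, with median ratios to WT of 1.68 and 1.02, whereas the 4 paralogues with enough UMIs had medians of 0.907 and 0.996. Of all genes tested, 46.6% were above WT in KO1134 and 58.7% in KO1308. The other 74 ribosomal protein genes had medians of 1.52 in KO1134 and 0.958 in KO1308, and all genes tested had 0.962 and 1.10. All 74 of these ribosomal protein genes were above WT in KO1134 and 31 in KO1308, and 5 were at least 1.5-fold above WT in both (*Rplp1*, *Rps12*, *Rps21*, *Rpl27a* and *Rpl38*). Ribosomal protein genes held 10.4% of UMIs in KO1308, 16.1% in KO1134 and 10.1% in WT1101, so each member is also given below relative to the UMIs of the other 74.

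**Figure D1:**
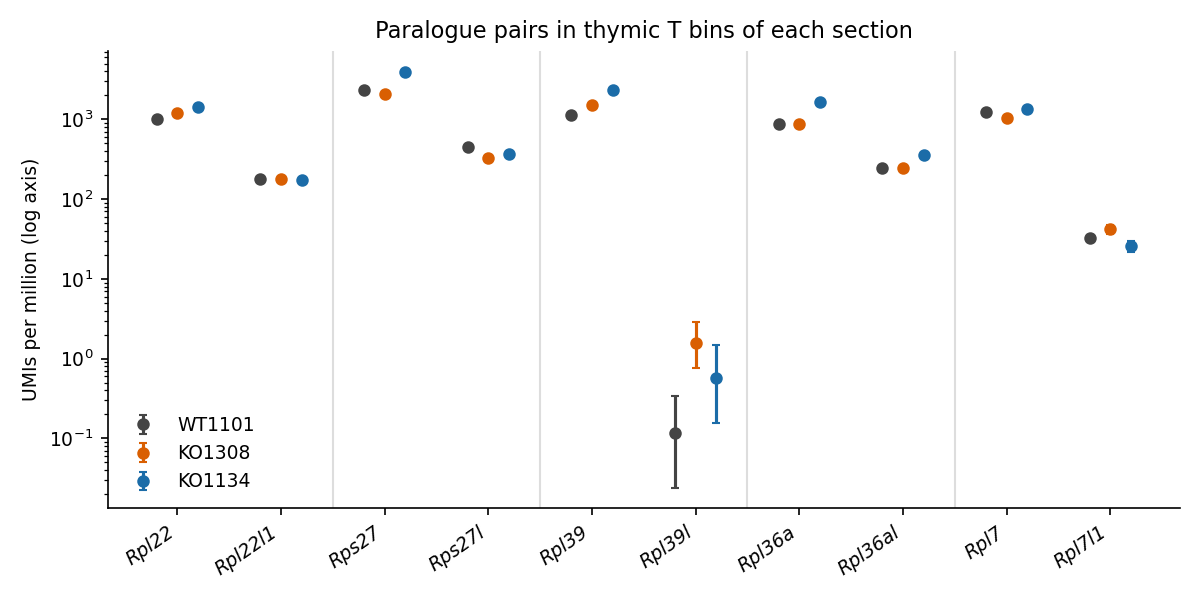
Level of each member in thymic T bins, in CPM on a log axis, by section (points) with exact 95% Poisson intervals (bars, mostly smaller than the points). Each parent is above its paralogue in each section, *Rpl39l* lies lowest at 0.117 to 1.59 CPM, and *Rps27l* is highest in WT1101.

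**Figure D2:**
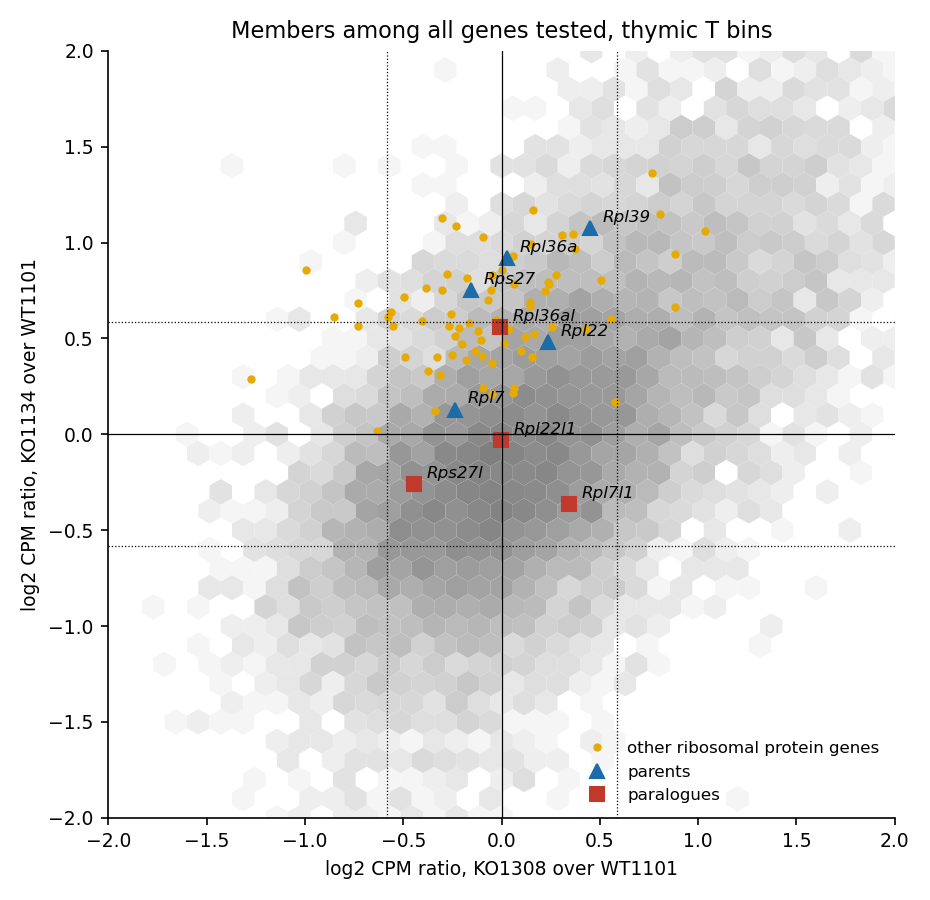
Log2 of the CPM ratio to WT1101 in KO1308 (x axis) and KO1134 (y axis) for all genes tested in thymic T bins, in grey hexagons shaded by the log of the gene number. Dotted lines mark 1.5-fold, genes beyond the axes are not shown, and none of the 9 members drawn lies in an outer corner shared by both KO sections.

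*Rps27* codes for a zinc finger protein of the small subunit and *Rps27l* for its p53-dependent relative. *Rps27l* was at 327 CPM (313 to 341) in KO1308, 372 CPM (358 to 386) in KO1134 and 446 CPM (437 to 454) in WT1101. Both KO sections thus lay below WT, at ratios of 0.734 (0.70 to 0.769) and 0.835 (0.800 to 0.871), without reaching 1.5-fold. Relative to the other ribosomal protein genes the ratios were 0.711 and 0.521. *Rps27* was at 2093 CPM in KO1308, 3921 CPM in KO1134 and 2328 CPM in WT1101. It was therefore slightly below WT in one KO section (0.899, 0.882 to 0.916) and well above it in the other (1.68, 1.66 to 1.71), and the KO sections differed by 1.87-fold. Relative to the other ribosomal protein genes *Rps27* was at 0.872 and 1.05 of WT. Without the B cell gene area, the KO1134 ratio of *Rps27* was 1.28 and that of *Rps27l* was 0.917.

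The paralogue was next set against its parent within each section, which removes the total of UMIs from the comparison. The UMI ratio is read here between sections and areas only, since capture and mapping can differ between the genes of a pair. *Rps27l* had 15.6 UMIs per 100 UMIs of *Rps27* (14.9 to 16.4) in KO1308, 9.48 (9.11 to 9.87) in KO1134 and 19.1 (18.8 to 19.5) in WT1101. The ratio was lower in both KO sections, at 0.816 (0.776 to 0.858) and 0.496 (0.474 to 0.518) of WT. Without the B cell gene area the KO1134 value rose to 0.713 (0.680 to 0.748) of WT and that of KO1308 stayed at 0.816. Requiring all 3 CD3 genes to pass in a bin left 209905 UMIs in KO1308 and 44683 in KO1134. The ratio was then at 1.12 of WT in KO1308 and 0.477 in KO1134. No interval is given for these values from few UMIs, so on which side of WT KO1308 lay is not read from them. Thymic T bins of 50 µm held 5742345 UMIs in KO1308, 2618793 in KO1134 and 25324162 in WT1101. In these the ratio was at 0.778 of WT in KO1308 and 0.298 in KO1134. Each section was also divided in 4 parts, and *Rps27l* per 100 *Rps27* ranged from 13.1 to 17.1 over the parts of KO1308, from 4.86 to 18.3 over those of KO1134 and from 18.7 to 19.3 over those of WT1101. The parts of neither KO section overlapped with those of WT, although the highest part of KO1134 lay close to the lowest of WT1101. Parts were cut by position and not by area. By area WT1101 ranged more widely, from 15.5 to 20.1, and the cortex side of KO1134 had 19.7. How often other pairs of genes come apart over such parts is not given here.

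By area, the ratio fell from the cortex side to the medulla side in all 3 sections. The sides are the parts of the thymus area in which cortical or medullary epithelial genes are relatively higher. They are cut against the shares of these genes in each section's own thymus area, so a side is not alike across sections. In KO1308, KO1134 and WT1101, medullary epithelial genes summed to 288, 153 and 40.2 CPM on the cortex side and to 1202, 1345 and 378 on the medulla side. Cortical epithelial genes summed to 1507, 1455 and 1236 CPM on the cortex side and 1228, 989 and 932 on the medulla side. The part of this in the ratios to WT by side was not tested. In WT1101, *Rps27l* per 100 *Rps27* was 20.1 (19.7 to 20.5) on the cortex side, 17.3 (16.8 to 17.9) on the medulla side and 15.5 (14.4 to 16.6) in the remaining tissue. In KO1308 it was 16.9, 12.4, 8.96 (8.19 to 9.78) and, in the B cell gene area, 8.20 (7.35 to 9.12), the latter intervals overlapping. In KO1134 it was 19.7 (19.2 to 20.2) on the cortex side, 11.3 (10.9 to 11.7) on the medulla side, 10.6 (9.76 to 11.5) in the remaining tissue and 3.27 (3.09 to 3.45) in the B cell gene area. The cortex side of KO1134 was thus at 0.980 (0.948 to 1.01) of WT, within counting error, whereas its medulla side was at 0.653 (0.622 to 0.686). KO1308 was at 0.842 on the cortex side and 0.714 on the medulla side.

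**Figure D3:**
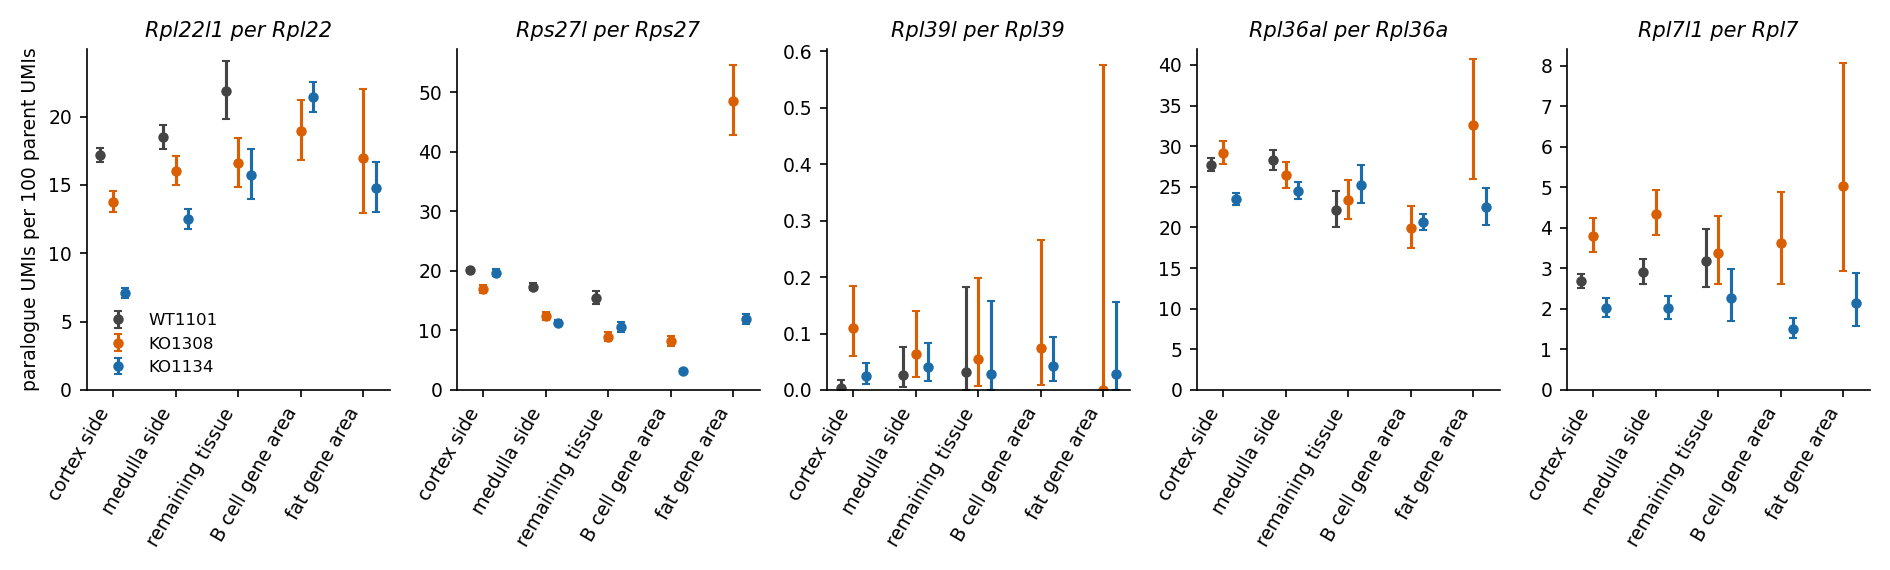
Paralogue UMIs per 100 parent UMIs (y axes from 0, 1 panel per pair) in 5 areas of each section (x axis), with exact 95% intervals as bars; WT1101 has no B cell gene area and no fat gene area. *Rps27l* per *Rps27* falls from the cortex side to the B cell gene area, where it is 3.27 in KO1134, and *Rpl22l1* per *Rpl22* on the cortex side is lowest in KO1134 at 7.07.

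**Figure D4:**
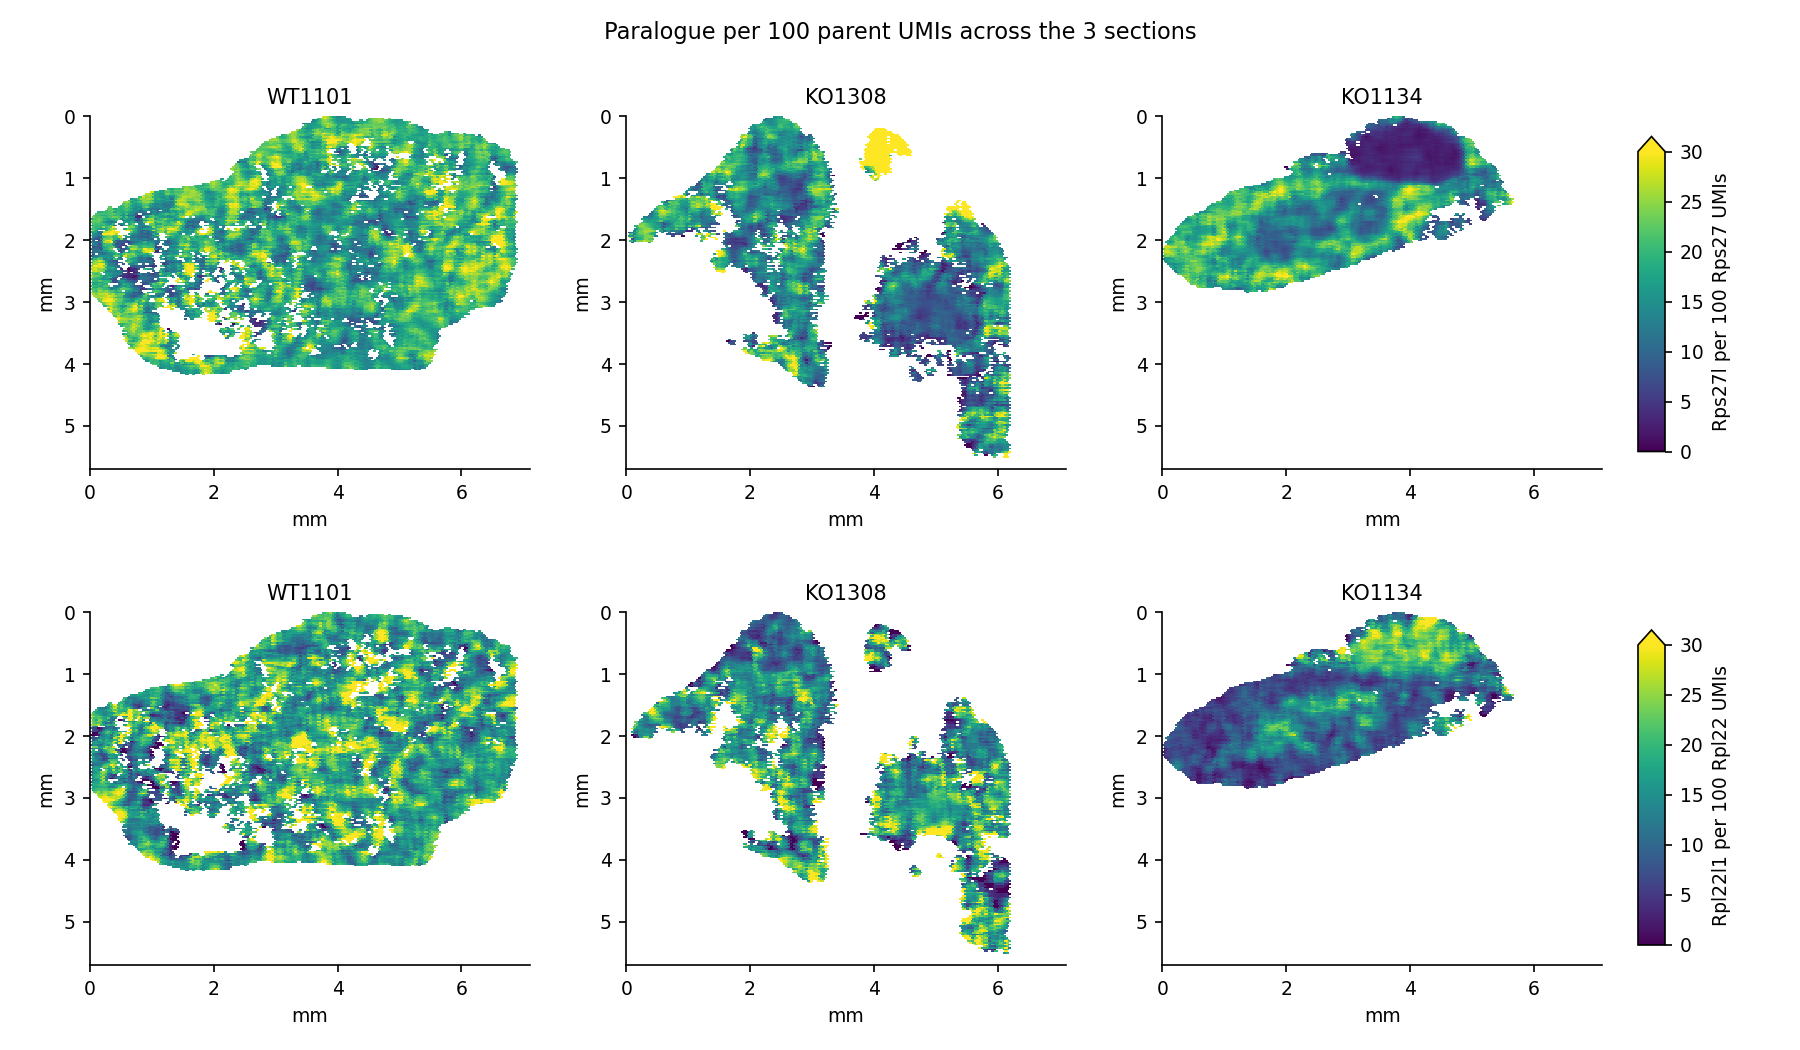
Maps of the 3 sections, with distance in mm on both axes, coloured by *Rps27l* per 100 *Rps27* UMIs (upper row) and *Rpl22l1* per 100 *Rpl22* UMIs (lower row) in the surrounding 7 × 7 bins; every second bin was computed and is drawn over its neighbour, bins with under 10 parent UMIs are blank and values above 30 take the top colour. The upper right mass of KO1134 is dark for *Rps27l* and bright for *Rpl22l1*, and a separate piece of KO1308 is at the top colour for *Rps27l*.

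In KO1134 most of this gradient came from the parent. *Rps27* was at 2226 CPM on the cortex side, 3515 on the medulla side and 7509 in the B cell gene area of KO1134, and at 2059, 2428 and 4651 CPM in the same areas of KO1308. In WT1101 it was at 2304 and 2382 CPM on the cortex and medulla sides, a medulla over cortex ratio of 1.03 (1.02 to 1.05) against 1.18 in KO1308 and 1.58 in KO1134. *Rps27l* moved less, from 439 to 398 and 245 CPM over the 3 areas of KO1134 and from 349 to 300 and 381 CPM over those of KO1308. On the cortex side *Rps27* was below WT in both KO sections, at 0.894 and 0.966. In the B cell gene area, the genes listed for mature thymocytes (*Ccr7*, *S1pr1* and *Klf2*, all detected) summed to 827 CPM in KO1134 and 357 CPM in KO1308. On the cortex side they summed to 113 and 75.2 CPM. In the remaining tissue the same genes summed to 425 CPM in KO1308, 317 in KO1134 and 642 in WT1101, where *Rps27* was at 3403, 3965 and 2659 CPM. The 3 B cell genes, which define the B cell gene area, summed to 851 CPM there in KO1134 and 573 in KO1308. CD3 genes summed to 925 and 555 CPM in that area, against 626 and 979 CPM on the cortex side of the same sections. Which cells there carried *Ccr7*, *S1pr1* and *Klf2*, and the part of such cells in the *Rps27* values, was not tested. In the fat gene area of KO1308, *Rps27l* stood at 386 CPM while *Rps27* was at 798 CPM, a ratio of 48.4 per 100 (42.9 to 54.6), and the fat gene area of KO1134 had 11.9.

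The position of *Rps27l* in KO1134 depended on the bins. It was at 0.947 (0.919 to 0.976) of WT on the cortex side, 0.964 (0.92 to 1.01) on the medulla side and 1.10 (1.04 to 1.17) in thymus bins without CD3 genes. KO1308 was at 0.753, 0.728 and 0.758 in the same bins. In thymic T bins of 1000 to 2000 UMIs, *Rps27l* was at 0.766 (0.714 to 0.822) of WT in KO1308 and at 1.01 (0.906 to 1.12) in KO1134. At 300 to 1000 UMIs it was at 0.881 (0.791 to 0.981) and 1.01 (0.755 to 1.33). At 2000 to 4000 UMIs, the class that held 1556 of the 2720 bins of KO1134, both sections were below WT, at 0.859 (0.785 to 0.939) in KO1308 and 0.750 (0.710 to 0.792) in KO1134. Its level rose with depth in WT1101, from 321 CPM in bins of 300 to 1000 UMIs to 409 CPM at 1000 to 2000 and 498 CPM at 2000 to 4000.

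Among other p53 targets, 14 of 15 listed genes had enough UMIs, of which 9 were below WT in both KO sections, with median ratios of 0.823 in KO1308 and 0.749 in KO1134. Of all genes tested, 32.4% were below WT in both. *Ccng1*, a cyclin (0.422 and 0.502), *Zmat3*, an RNA-binding zinc finger protein (0.504 and 0.494), and *Trp53inp1*, which promotes p53-dependent cell death (0.614 and 0.212), were at least 1.5-fold below WT in both. *Pmaip1*, which codes for the BH3-only protein Noxa, was at least 1.5-fold above WT in both (1.69 and 2.11). *Mdm2*, whose protein degrades p53, was at 0.788 and 0.605. The *Rps27l* ratio in KO1308 (0.734) was lower than the median of this list, and that in KO1134 (0.835) was higher.

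*Rpl22* codes for an RNA-binding protein of the large subunit. It was at 1193 CPM (1166 to 1220) in KO1308, 1413 CPM (1385 to 1441) in KO1134 and 1012 CPM (999 to 1024) in WT1101. Both KO sections lay above WT, at 1.18 (1.15 to 1.21) and 1.40 (1.36 to 1.43). This held in each of the cortex side, the medulla side and the remaining tissue, with ratios of 1.20, 1.21 and 1.31 in KO1308 and 1.32, 1.36 and 1.25 in KO1134. Relative to the other ribosomal protein genes the direction split, with 1.14 in KO1308 and 0.873 in KO1134.

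*Rpl22l1* was at 177 CPM (166 to 187) in KO1308, 174 CPM (164 to 184) in KO1134 and 177 CPM (172 to 182) in WT1101. The intervals of both ratios to WT, 0.933 to 1.06 in KO1308 and 0.919 to 1.04 in KO1134, held 1. Per 100 UMIs of *Rpl22*, *Rpl22l1* had 14.8 UMIs (13.9 to 15.8) in KO1308, 12.3 (11.6 to 13) in KO1134 and 17.5 (17.0 to 18.1) in WT1101. The ratio to the parent was thus 0.845 (0.788 to 0.907) and 0.701 (0.655 to 0.750) of WT. It was below WT in 3 of 3 shared areas in both KO sections, from 0.759 to 0.866 in KO1308 and from 0.411 to 0.720 in KO1134. Over the 4 parts of each section the values overlapped, with 12.3 to 17.2 in KO1308, 6.60 to 18.5 in KO1134 and 17.0 to 17.9 in WT1101.

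The equal totals of *Rpl22l1* hid a contrast between areas of KO1134. On its cortex side *Rpl22l1* was at 96.9 CPM (91.8 to 102), against 172 in KO1308 and 179 in WT1101. That is 0.541 (0.510 to 0.575) of WT in KO1134 and 0.958 (0.902 to 1.02) in KO1308. On the medulla side the sections were closer, at 164, 187 and 179 CPM in KO1134, KO1308 and WT1101. The B cell gene areas had the highest levels of their sections, at 332 CPM (317 to 348) in KO1134 and 363 CPM (325 to 403) in KO1308. The medulla over cortex ratio of *Rpl22l1* was 1.70 (1.57 to 1.83) in KO1134, 1.09 (1.00 to 1.18) in KO1308 and 0.999 (0.947 to 1.05) in WT1101. Without the B cell gene area, thymic T bins of KO1134 had 133 CPM of *Rpl22l1*, or 0.753 (0.696 to 0.813) of WT, and a ratio to *Rpl22* of 0.554 (0.511 to 0.601) of WT.

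The cortex side of KO1134 also differed in its thymocyte genes. The summed level of *Rag1* and *Dntt* was 671 CPM there, against 1262 in KO1308 and 1921 in WT1101. Its cortical epithelial genes were at 1455 CPM, against 1507 and 1236. CD3 genes summed to 626 CPM there, against 979 and 1478, proliferation genes to 667, against 943 and 1016, and macrophage genes to 626, against 394 and 263. The part of these differences in the *Rpl22l1* values was not tested.

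*Rpl39* codes for a small protein of the exit tunnel and showed the largest ratios to WT among the 9 members with at least 100 UMIs. It was at 1526 CPM (1495 to 1556) in KO1308, 2352 CPM (2316 to 2388) in KO1134 and 1117 CPM (1104 to 1130) in WT1101. The ratios to WT were 1.37 (1.33 to 1.40) and 2.11 (2.07 to 2.15), so the KO1308 section remained short of 1.5-fold. On the medulla side both KO sections passed it, with 1.53 and 2.03. They also did so in thymus bins without CD3 genes, at 1.59 and 2.24, and in thymic T bins of 300 to 1000 UMIs, at 1.58 and 2.67. KO1308 fell short in the deeper classes, at 1.43 for 1000 to 2000 UMIs and 1.46 for 2000 to 4000, where KO1134 was at 2.37 and 1.91. Relative to the other ribosomal protein genes *Rpl39* was at 1.32 of WT in both KO sections, and it was the only parent above WT in both on that scale. In the remaining tissue its CPM ratios were 1.47 and 1.57.

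*Rpl39l* was hardly detected. Thymic T bins held 10 UMIs in KO1308, 4 in KO1134 and 3 in WT1101, which came to 1.59 CPM (0.761 to 2.92) in the first, 0.572 (0.156 to 1.47) in the second and 0.117 (0.0242 to 0.343) in the third. The ratio to WT was 13.5 with an interval of 3.48 to 76.3 in KO1308, and 4.87 with an interval of 0.824 to 33.3, which holds 1, in KO1134. In all tissue bins the UMIs were 24, 23 and 5, with ratios of 11.1 (4.14 to 37.2) and 6.00 (2.23 to 20.2). With so few UMIs no fold of this gene is counted among the calls. Its UMIs were spread over 9, 4 and 3 thymic T bins. Per 100 *Rpl39* UMIs, *Rpl39l* had 0.104, 0.0243 and 0.0105 UMIs.

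*Rpl36a* and *Rpl36al*, which code for near-identical proteins of the large subunit, were both highest in KO1134. *Rpl36a* was at 880 CPM (857 to 903) in KO1308, 1630 CPM (1600 to 1660) in KO1134 and 862 CPM (850 to 873) in WT1101. For *Rpl36al* the levels of KO1308, KO1134 and WT1101 were 244 CPM (232 to 256), 360 CPM (346 to 375) and 245 CPM (239 to 251). KO1308 was thus close to WT for both genes, at 1.02 (0.991 to 1.05) and 0.995 (0.941 to 1.05), and KO1134 above it, at 1.89 (1.85 to 1.93) and 1.47 (1.40 to 1.54). *Rpl36al* per 100 *Rpl36a* UMIs was 27.7 (26.2 to 29.3), 22.1 (21.2 to 23.1) and 28.4 (27.6 to 29.2). The ratio was 0.975 (0.916 to 1.04) of WT in KO1308 and 0.778 (0.739 to 0.819) in KO1134. Over 4 parts, KO1134 (20.9 to 23.7) did not overlap with WT1101 (27.1 to 30.9), whereas KO1308 did. In the remaining tissue of KO1134 the direction was opposite, at 1.14 (0.997 to 1.30) of WT.

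*Rpl7* was the parent with the smallest distance from WT in KO1134. It was at 1045 CPM (1020 to 1071) in KO1308, 1349 CPM (1322 to 1377) in KO1134 and 1234 CPM (1220 to 1248) in WT1101, ratios of 0.847 and 1.09. Relative to the other ribosomal protein genes *Rpl7* was below WT in both KO sections, at 0.821 and 0.683. *Rpl7l1* had 41.9 CPM (37 to 47.2) in KO1308, 25.6 (22 to 29.6) in KO1134 and 33.0 (30.8 to 35.3) in WT1101. The KO sections stood on opposite sides of WT, at 1.27 (1.10 to 1.46) in KO1308 and 0.777 (0.657 to 0.914) in KO1134. The same split held for *Rpl7l1* per 100 *Rpl7* UMIs, which was 4.0 (3.53 to 4.53), 1.90 (1.63 to 2.20) and 2.67 (2.49 to 2.86). KO1308 was at 1.5 (1.3 to 1.73) and KO1134 at 0.710 (0.603 to 0.836) of WT, and these directions were the same on the cortex side, on the medulla side and in the remaining tissue, where both intervals held 1. Over 4 parts, KO1308 (3.45 to 5.81) did not overlap with WT1101 (2.44 to 2.82), whereas KO1134 (1.58 to 2.80) did.

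Between the sides of the thymus area, 2 of 9 members (*Rps27* and *Rpl7l1*) were higher on the medulla side in all 3 sections, where 32.0% of 16720 genes were. Another 3 (*Rpl22*, *Rps27l* and *Rpl36al*) were lower on the medulla side in all 3 sections, beside 23.9% of all genes. Among these 9 members the ratios furthest from 1 were those of *Rpl22l1* and *Rps27* in KO1134. The medulla over cortex ratio of *Rpl22* was 0.929 to 0.961, that of *Rps27l* 0.862 to 0.906 and that of *Rpl36al* 0.933 to 0.968 over the 3 sections. For *Rpl36al* the intervals in KO1308 and WT1101 held 1, and for *Rpl7l1* likewise. *Rpl7* was higher on the medulla side in KO1134 alone, at 1.20 (1.17 to 1.23).

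In sum over both genes of a pair, the paralogue gave 12.9% of the *Rpl22* pair in KO1308, 10.9% in KO1134 and 14.9% in WT1101. The paralogue shares of the *Rps27* pair were 13.5%, 8.66% and 16.1%, those of the *Rpl36a* pair 21.7%, 18.1% and 22.1%, and those of the *Rpl7* pair 3.85%, 1.86% and 2.60%. In all 4 of these pairs the share was lowest in KO1134, and in 3 of them it was highest in WT1101. All 5 parents were above WT in KO1134, as were the other 74 ribosomal protein genes. The *Rpl39l* share, from few UMIs, was instead lowest in WT1101, at 0.104% in KO1308, 0.0243% in KO1134 and 0.0105% in WT1101. The summed *Rps27* pair was at 0.873 of WT in KO1308 and 1.55 in KO1134, and the summed *Rpl22* pair at 1.15 and 1.33.

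The precision of these values is also set by reads shared with other genes. Of the 50-base stretches of the transcript, 98.6% of those of *Rps27* also occurred in another gene's transcripts, chiefly *Rps27rt*, a copy without introns. The share was 85.5% for *Rpl36a*, 57.3% for *Rpl22l1*, chiefly with *Gm15421*, 53.3% for *Rpl7*, 24.9% for *Rpl36al*, 22.4% for *Rps27l*, 16.2% for *Rpl39*, 9.03% for *Rpl7l1*, 5.19% for *Rpl22* and 0 for *Rpl39l*. Over the last 300 stretches at the 3′ end it was 100% for *Rpl36a*, 78.3% for *Rpl7*, 74% for *Rpl36al* and 58% for *Rpl22l1*. There it was 31.3% for *Rps27l*, 30.3% for *Rpl39*, 2% for *Rpl7l1* and 0 for *Rpl22* and *Rpl39l*. *Rps27* had 296 stretches in all. How reads matching several genes were assigned is not given in the sources used here. *Rps27rt* had UMIs equal to 13.7%, 7.21% and 8.0% of those of *Rps27* in all tissue bins of KO1308, KO1134 and WT1101, and in thymic T bins it was at 1.57 of WT in both KO sections. The feature *Rpl7-ps7* had 24.7%, 12.4% and 16.9% of the UMIs of *Rpl7*, and *Rpl39-ps* had 18.3%, 8.19% and 14% of those of *Rpl39*. For *Rpl36a*, *Rpl36a-ps1* had 11.1%, 5.29% and 4.90% of its UMIs. *Rpl36a-ps2* had 7.31%, 5.15% and 3.38%, and *Rpl36a-ps3* had 12.9%, 5.97% and 14.5%. With the UMIs of such features and of *Rps27rt* added to the member, an alternative chosen after seeing the data, the ratio of *Rps27l* to *Rps27* was at 0.774 of WT in KO1308 and 0.498 in KO1134. The other listed paralogues of ribosomal protein genes were *Rps4l*, at 2.49 and 1.27 of WT, *Rpl3l* with 5, 64 and 0 UMIs, and *Rpl10l* with 0 UMIs in each section, which at a limit of 3 UMIs per section allows up to 0.476, 0.429 and 0.117 CPM.

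The genes whose levels ran most like those of *Rps27l* over 13 areas of the 3 sections were *Gm47313* (Pearson's r = 0.85 on log2 CPM), *Fbxo44* (0.82), *Impa2* (0.81), *Pde5a* (0.81) and *Hist1h2bc* (0.80), among 17397 genes. For *Rpl22l1* they were *Gm33051* (0.96), *Rpl34-ps1* (0.95), *Cotl1* (0.95), *Gm15421* (0.95) and *H60b* (0.94), of which *Gm15421* shares sequence with it. The 13 areas come from 3 libraries of unequal depth and are not independent. *Rps27l* against *Rps27* gave -0.41, and *Rpl22l1* against *Rpl22* gave 0.77 over the same areas.

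In thymic T bins with UMIs of *Cdkn2a*, which codes for the cell cycle inhibitor p16 and for p19Arf, *Rps27* was at 0.575 (0.552 to 0.598) of the level in the other thymic T bins of KO1134 and at 1.01 (0.931 to 1.09) in KO1308. *Rps27l* was at 1.10 (0.988 to 1.22) and 1.24 (1.02 to 1.48) of it, from 368 and 250 such bins. In KO1134, *Rpl22l1* was at 0.650 (0.537 to 0.781) and *Rpl7* at 0.801 (0.754 to 0.851). Their values in KO1308 were 0.884 (0.648 to 1.18) and 0.956 (0.850 to 1.07). *Rpl22* was at 1.20 (1.09 to 1.32) in KO1308 and 0.961 (0.909 to 1.02) in KO1134. These bins were deeper than the others, with median UMIs of 2942 against 2572 in KO1134 and 1149 against 976 in KO1308, and the part of depth in these ratios was not tested. The thymic T bins of KO1134 compared here include those in the B cell gene area. Without that area *Rps27* was at 2991 CPM in its thymic T bins, against 3921 with it. The part of that area in these ratios was not tested either.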

How the data were processed

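Spatial transcriptomes of thymus from 2 *Trp53*-/- mice and 1 WT mouse were used. Reads were processed by the authors with BSTMatrix and the STAR aligner, and the deposited values are raw UMI counts for each gene in each spot. The build is GRCm38 per the submitters' processing notes, and GENCODE M21 holds 99.9% of the gene identifiers. Spots were summed in 27 µm bins, kept at 300 or more genes and at most 30% mitochondrial UMIs, and bins outside connected groups of 200 bins were left out. Folds, which the authors removed, were kept. T bins had *Cd3d*, *Cd3e* or *Cd3g* above 2 on the natural log of 1 plus UMIs per 10000. In the thymus area, 6 thymus genes reached 50% or more of their share in the whole section over the surrounding 7 × 7 bins. Medulla and cortex sides, B cell gene and fat gene areas were set by marker genes in the same windows.

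CPM came from sums over bins, with exact Poisson and conditional binomial intervals. No test between genotypes was made. Calls needed 100 UMIs over the 3 sections and 1.5-fold on the same side in both KO sections. The members and lists were chosen with earlier results of these data known. All 10 members are named, and likeness names the 5 highest correlations of log2(CPM + 1) over areas of at least 50 bins. The scripts were tested on simulated data. Alternatives changed bins, filters, CD3 rule, denominator and sections. Tools were biopython 1.88, scipy 1.17.1, numpy 2.4.6, matplotlib 3.10.9 and pandas 2.3.3 under Python 3.11.15.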

Additional observations from a re-analysis of the deposited data

Results flagged for a closer look

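Directions that differed between areas concerned 3 comparisons. *Rps27* had a KO mean over WT of 1.25 on the medulla side and 0.930 on the cortex side, with both KO sections above WT on the first and below it on the second. In the remaining tissue it had 1.39, again with both KO sections above WT. *Rpl36al* per *Rpl36a* had a KO mean over WT of 1.10 in the remaining tissue and 0.901 on the medulla side. These differences were not tested, and the medulla side value of *Rps27* in KO1308 was 1.02 (0.998 to 1.04), within counting error of WT.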

How the results depend on the processing

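The count of members past 1.5-fold in both KO sections stayed at 0 under the other bin widths, gene minimums, CD3 rule and denominators, in all tissue bins, in all spots, on the cortex side, without the B cell gene area and in bins of 1000 to 2000 UMIs. It was 1 (*Rpl39l*) with no minimum of UMIs and 1 (*Rpl39*) on the medulla side, and *Rpl39* also passed in thymus bins without CD3 genes and in bins of 300 to 1000 UMIs. Leaving out one KO section gave 0 to 3, the 3 being *Rps27*, *Rpl39* and *Rpl36a* in KO1134 alone. The other 74 ribosomal protein genes had a median ratio of 1.52 in that section, with all 74 above WT. Shares of all genes past the fold under these alternatives are not given here. The counts are therefore not read as a result about the members. The KO mean over WT of the paralogue to parent ratio moved by less than the spread between the KO sections in 68 of 74 values from alternatives, as did the CPM ratio of single members in 147 of 169. For *Rpl22l1* it was 0.773, against 0.887 in 50 µm bins, 0.584 where all 3 CD3 genes had to pass and 0.605 on the cortex side. For *Rps27l* it was 0.656, with the KO sections at 0.477 and 1.12 of WT where all 3 CD3 genes had to pass, against 0.911 on the cortex side, and for *Rpl39l* 6.10 against 21.0 there. For *Rpl36al* it was 0.877, and 1.03 where all 3 CD3 genes had to pass, a rule under which *Rpl39l* gave no value. For *Rpl7l1* it was 1.10, and 0.994 in 20 µm bins. Leaving out one KO section gave 0.701 to 0.845 for *Rpl22l1*, 0.496 to 0.816 for *Rps27l*, 2.31 to 9.88 for *Rpl39l*, 0.778 to 0.975 for *Rpl36al* and 0.710 to 1.5 for *Rpl7l1*. The CPM ratio of *Rpl22l1*, 0.988 as the mean of the KO sections, was 1.14 in 50 µm bins and 1.03 without mitochondrial and ribosomal protein UMIs in the denominator. The causes were not tested. Single sides, the shifted grid, bins of 1000 to 2000 UMIs and added related features were chosen after seeing the data. No paired analysis was possible because there was 1 WT section and no label ties a KO section to it. Depth limits *Rpl39l* most, and intervals cover counting error only.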
